A study of Mus musculus with 2 samples.

Results

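Among the strongest peaks of open chromatin in replicate 2 of an embryonic mouse midbrain DNase-seq experiment, 8532 had no peak of replicate 1 overlapping them by as little as 1 bp. They were chosen from 447681 replicate 2 peaks on chromosomes 1 to 19. A peak was called strong when its deposited signal was at or above 33, the 90th percentile of that list, which 45325 peaks reached. The replicate 2-only peaks were thus 18.8% of the strong replicate 2 peaks, whereas 78.5% of all replicate 2 peaks lacked an overlap. Both the signal and the missing overlap chose these peaks, so neither is a result.

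The tissue was healthy midbrain of strain B6NCrl at embryonic day 11.5, pooled from male and female embryos, and the only group held 2 biological replicates. Replicate 2 had 447681 peaks and replicate 1 had 300618, a ratio of 1.49, and read depth is unknown because the lists carry no read totals. The replicates were sequenced on different sets of instruments, so library, embryo pool, instrument and replicate cannot be told apart. Of 20 midbrain and isthmus patterning genes, 20 had a peak at a transcription start site (TSS) in replicate 2 and 16 in replicate 1. With 1 group no test between samples was possible, and peaks of a library are not replicates, so counts, shares and medians are given as descriptions with no p-value.

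DNase I cuts DNA where nucleosomes are displaced or loosened, so cut sites mark promoters, enhancers and insulators. A peak is a narrow maximum of cutting, and a hotspot is the wider region of elevated cutting around it. Many promoters lie in CpG islands, stretches of high GC content in which the dinucleotide CpG has not been depleted. Genes for developmental transcription factors often carry islands that extend over several kilobases, and Polycomb proteins can occupy these where the gene is silent. In the early midbrain, homeobox genes such as Otx2 and Lmx1b set regional identity, while most Hox genes act further back, in the hindbrain and trunk.

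The sequences of 7 replicate 2-only peaks show the range of settings. The first pair had neither a replicate 1 hotspot nor a replicate 1 peak within 500 bp, the next pair lay in a replicate 1 hotspot without a peak that near, and the last 3 had both. They are the plus strand of mm10, 5′ to 3′, with each CpG in capitals.
Sim1 chr10:50903416-50903565: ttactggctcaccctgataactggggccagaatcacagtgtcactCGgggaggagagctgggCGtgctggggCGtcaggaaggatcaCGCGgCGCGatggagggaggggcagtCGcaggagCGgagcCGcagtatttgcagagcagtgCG
Hoxa13 chr6:52259956-52260105: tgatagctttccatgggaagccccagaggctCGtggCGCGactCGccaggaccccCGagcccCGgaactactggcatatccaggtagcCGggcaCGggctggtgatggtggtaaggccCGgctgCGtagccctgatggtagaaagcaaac
Dcaf6 chr1:165459796-165459945: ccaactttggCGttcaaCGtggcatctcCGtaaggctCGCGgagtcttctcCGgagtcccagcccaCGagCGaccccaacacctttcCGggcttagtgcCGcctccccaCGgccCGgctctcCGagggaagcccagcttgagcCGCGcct
Abhd17b chr19:21653656-21653805: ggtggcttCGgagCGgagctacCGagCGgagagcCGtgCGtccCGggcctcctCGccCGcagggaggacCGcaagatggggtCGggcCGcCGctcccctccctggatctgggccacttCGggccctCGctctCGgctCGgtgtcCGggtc
Pgrmc2 chr3:41083276-41083425: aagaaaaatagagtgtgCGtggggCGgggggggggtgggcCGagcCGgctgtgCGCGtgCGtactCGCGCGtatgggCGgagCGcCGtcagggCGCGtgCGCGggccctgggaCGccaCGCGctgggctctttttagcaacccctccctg
Nsd2 chr5:33820316-33820465: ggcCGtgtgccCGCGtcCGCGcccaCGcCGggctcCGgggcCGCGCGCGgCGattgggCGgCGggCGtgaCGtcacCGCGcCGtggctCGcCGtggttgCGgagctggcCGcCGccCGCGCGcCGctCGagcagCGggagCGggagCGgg
Msi1 chr5:115436736-115436885: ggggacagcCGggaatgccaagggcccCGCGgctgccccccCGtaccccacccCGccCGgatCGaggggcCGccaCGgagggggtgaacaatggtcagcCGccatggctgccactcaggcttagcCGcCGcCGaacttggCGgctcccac
The Sim1 peak held 11 CpGs at 64% GC, the Hoxa13 peak 10 at 63.3%, the Dcaf6 peak 15 at 66.7% and the Abhd17b peak 18 at 74.7%. The Pgrmc2 peak held 20 at 71.3%, the Nsd2 peak 33 at 84% and the Msi1 peak 14 at 74%. All 7 were thus rich in CpG, but they are among the strongest peaks of their class. Over all replicate 2-only peaks, CpG number varied with the state in replicate 1. The median was 9 CpGs with both a replicate 1 hotspot and a peak within 500 bp. It was 6 with the near peak and no hotspot, and 5 with neither.

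Signals of the replicate 2-only peaks ranged from 33 to 112, with a median of 45 and quartiles of 38 and 56. Strong replicate 2 peaks that did overlap a replicate 1 peak, called shared peaks here, numbered 36793 and had a median of 51 and a highest value of 130. At the threshold value of 33 lay 436 replicate 2-only peaks, and 493 peaks without overlap lay just outside it at 32. Signal is the authors' own value and is used only to rank peaks within a list. Every replicate 2-only peak was 150 bp wide.

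Most replicate 2-only peaks lay close to a replicate 1 peak. A replicate 1 peak lay within 500 bp of 7450 of them (87.3%), against 18.5% of all replicate 2 peaks without overlap. A replicate 1 hotspot overlapped 6293 (73.8%), against 5.69%. These features come from the library that the choice used, so they describe the set. The gap to the nearest replicate 1 peak had a median of 90 bp, an upper quartile of 230 bp and a longest value of 26770 bp. For 1143 peaks (13.4%) it was 10 bp, the smallest gap seen. Gaps are measured from edge to edge, so the gap was shorter than the 150 bp width of a peak for much of the set.

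By replicate 1 state, 6270 peaks (73.5%) had both a hotspot and a peak within 500 bp. Another 1180 (13.8%) had the near peak without the hotspot, and 23 (0.27%) had the hotspot alone. The remaining 1059 (12.4%) had neither and are called unmatched peaks. A replicate 1 hotspot overlapped 95.7% of the peaks with a gap of 10 bp and 44.4% of those with a gap of 301 to 500 bp. At 501 to 1000 bp the share was 5.06%, and beyond 2000 bp it was 0.

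**Figure D1:**
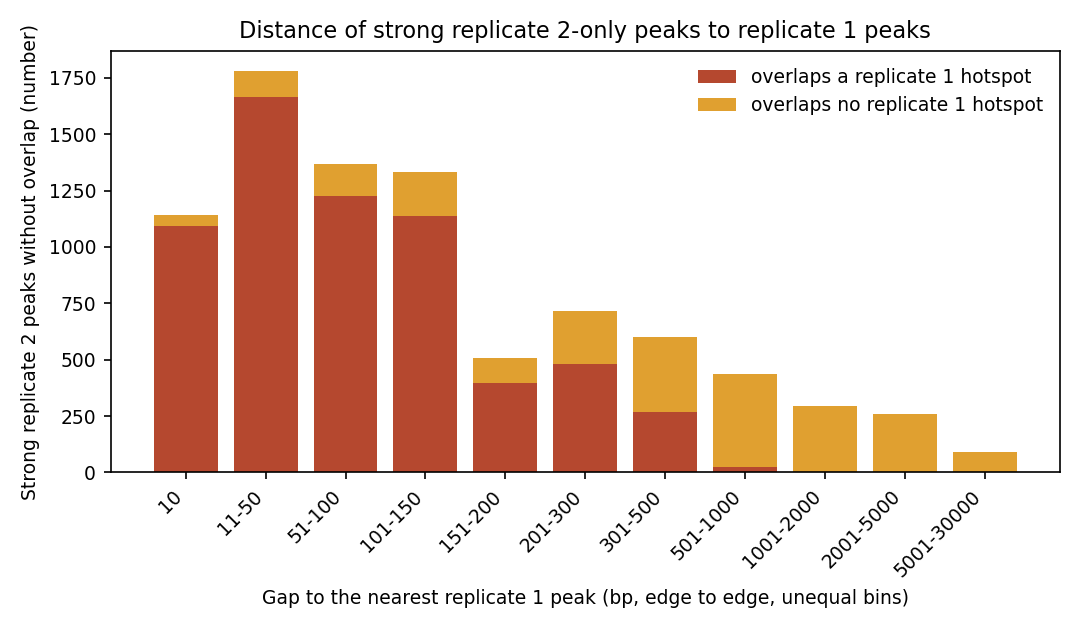
Number of replicate 2-only peaks by distance in bp to the nearest replicate 1 peak, with the share that a replicate 1 hotspot overlaps. Most of the 8532 peaks have a gap under 150 bp, and the hotspot share falls with distance to 5.06% at 501 to 1000 bp.

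State varied with signal. In the lowest 20% of the replicate 2-only peaks by signal, with signals of 33 to 37, 23.3% were unmatched and 16.9% lay at promoters, within 500 bp of a TSS. In the highest 20%, with signals of 58 to 112, 0.937% were unmatched and 72.6% lay at promoters. The 100 strongest all had a replicate 1 hotspot and a near peak, and 85 of them lay at promoters.

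The nearest replicate 1 peak was often not matched to anything else. Of the 7450 replicate 2-only peaks with a near replicate 1 peak, 3903 (52.4%) had a nearest peak that overlapped no replicate 2 peak at all, with a median gap of 50 bp. For the other 3547 (47.6%), the nearest replicate 1 peak overlapped another replicate 2 peak, with a median gap of 130 bp. Those 3547 lay beside a site marked in both lists. Among their 1625 promoter peaks, 66.6% were farther from the TSS than the nearest replicate 1 peak, with median distances of 231 bp for the replicate 2-only peak and 87 bp for its neighbour. Among the 1589 promoter peaks with an otherwise unmatched neighbour the share was 46.9%, with median distances of 221 bp for the replicate 2-only peak and 180 bp for its neighbour.

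The strongest replicate 2-only peak, with a signal of 112, lay in an exon, 862 bp from a TSS of Brd2. Brd2 encodes a bromodomain protein that binds acetylated histones. A replicate 1 peak with a signal of 135 in its own list lay 10 bp away. The peak of Pgrmc2, a haem-binding membrane protein, had a signal of 108 and lay 10 bp from a replicate 1 peak of signal 141. At Nsd2, a histone methyltransferase gene, the signal was 104 and the replicate 1 peak, of signal 128, was 30 bp away. These 3 peaks thus lay in the immediate flank of a replicate 1 peak.

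The other 12 of the 15 strongest had signals of 95 to 101. They lay near Rad23b, a nucleotide excision repair gene, Lrrc42, Msi1, an RNA-binding protein of neural progenitors, and Mboat2, an acyltransferase. Further ones lay near Maz, a zinc finger transcription factor, Rap2a, a small GTPase, Ptprs, a receptor tyrosine phosphatase, and Srsf7, a splicing factor. The last were near Nmt2, an N-myristoyltransferase, Zfp143, a zinc finger factor of promoters, Acaa2, a mitochondrial thiolase, and Setd5, a SET domain gene. All 15 lay in a replicate 1 hotspot with a replicate 1 peak at most 150 bp away. Of the 15, 11 lay at promoters, and GC content ranged from 58% to 84%.

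Replicate 2-only peaks had a promoter share close to that of shared peaks but sat elsewhere around the TSS. Promoters held 3319 (38.9%) of them and 40.8% of shared peaks, against 5.62% of all replicate 2 peaks. Exons held 9.75% against 6.07% of shared peaks, introns 27.6% against 24.6% and intergenic sequence 23.7% against 28.5%. From 0.5 to 2.5 kb of a TSS lay 27.8% of replicate 2-only peaks and 16.2% of shared peaks. Beyond 2.5 kb, called distal here, lay 33.3% of replicate 2-only and 43.0% of shared peaks. Shares were thus higher than in shared peaks in exons, in introns and at 0.5 to 2.5 kb from a TSS, and lower in intergenic and distal sequence.

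Within promoters, the replicate 2-only peaks lay mainly downstream of the TSS. Of the 3319, 70.4% had their midpoint downstream of the nearest TSS, and the median position was 157 bp downstream. Of 15021 shared promoter peaks, 45.4% were downstream, with a median position 9 bp upstream. The median distance to the TSS, regardless of side, was 227 bp for replicate 2-only and 70 bp for shared peaks. In 50 bp steps, the fullest step for replicate 2-only peaks was 200 to 250 bp downstream, with 11.8%, against 3.24% of shared peaks. Shared peaks were most frequent in the 50 bp upstream of the TSS, with 23.9%, where 4.58% of replicate 2-only peaks lay.

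**Figure D2:**
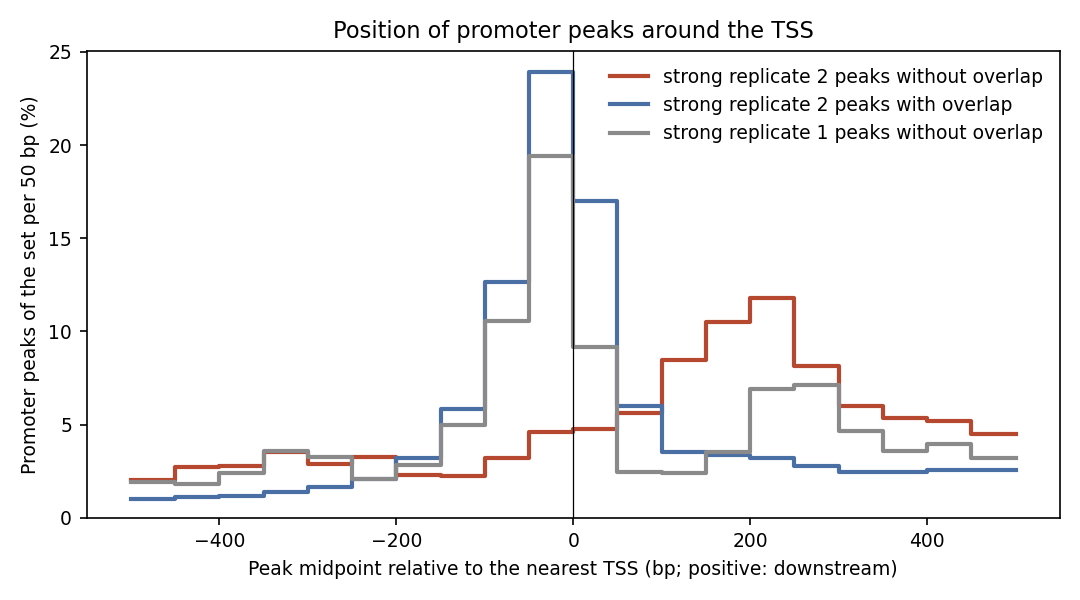
Share of promoter peaks in 50 bp steps of distance from the nearest TSS, upstream to the left and downstream to the right. Replicate 2-only peaks are spread downstream with most at 200 to 250 bp (11.8%), whereas shared peaks stand highest just upstream (23.9%).

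Both downstream shares were slightly higher at genes without alternative TSSs. At genes with a single annotated TSS, 72.5% of 1264 replicate 2-only promoter peaks and 47.7% of 6173 shared promoter peaks were downstream. The mirror set of strong peaks of replicate 1 only, chosen with the same rule and a threshold of 71, held 4268 of 30915 peaks (13.8%). Of its 1777 promoter peaks 46.7% were downstream, and their median position was 9 bp upstream, with 19.4% in the 50 bp upstream of the TSS. A second, lower maximum held 6.92% at 200 to 250 bp and 7.15% at 250 to 300 bp downstream. The median distance to the TSS in this mirror set, 158 bp, lay between the 227 bp of replicate 2-only peaks and the 70 bp of shared peaks. None of these differences was tested.

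GC content was higher at promoters than elsewhere. The median GC content was 60.0% in replicate 2-only peaks, 60.7% in shared peaks and 46.7% in all replicate 2 peaks. At promoters the medians were 66.7% and 68.0% for replicate 2-only and shared peaks, and outside promoters 56.7% and 56%. The observed to expected CpG ratio had medians of 0.635 in replicate 2-only peaks, 0.652 in shared peaks and 0.199 in all replicate 2 peaks. Outside promoters it was 0.521 in replicate 2-only and 0.455 in shared peaks. At least 5 CpGs were present in 72.7% of replicate 2-only and 70.7% of shared peaks. Repeat-masked sequence made up a mean of 6.66% of replicate 2-only and 6.55% of shared peaks, against 18.9% of all replicate 2 peaks.

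**Figure D3:**
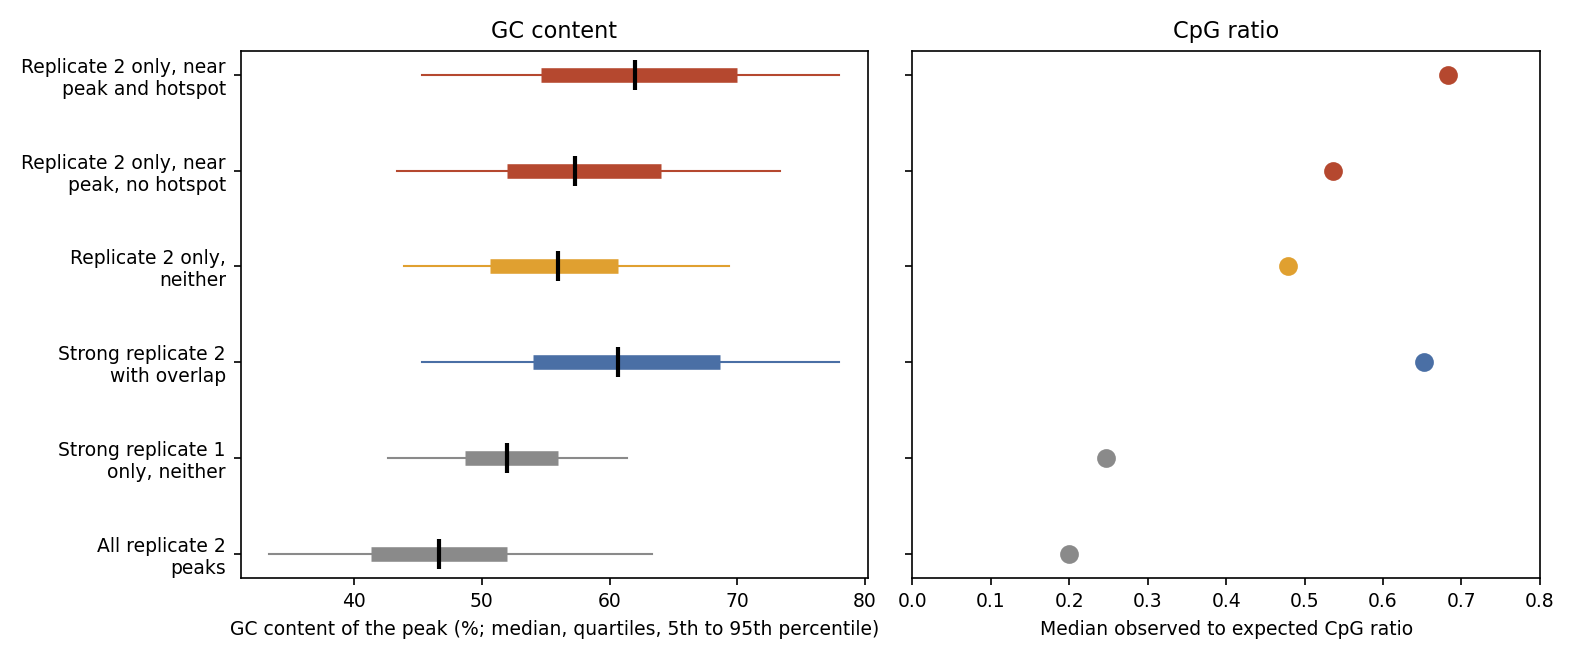
GC content in percent and observed to expected CpG ratio of peaks by set. Replicate 2-only peaks with a replicate 1 hotspot and near peak have a median GC of 62%, those with a near peak and no hotspot 57.3%, unmatched ones 56% and unmatched strong replicate 1 peaks 52%.

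The consensus letters of several factors were less frequent in replicate 2-only than in shared peaks, at close GC content. Position was not matched, as promoter peaks of these sets lay at median distances of 227 and 70 bp from the TSS. Searched on either strand were the core consensus sequences of the insulator protein CTCF and of NRF1, a factor of CpG-rich promoters, with CCGGAAG for ETS factors, TGACGTCA for CREB and ATF factors and GGGCGG for SP and KLF factors. The CTCF letters were in 1.20% of replicate 2-only peaks, 9.25% of shared peaks and 1.63% of all replicate 2 peaks. In the same order of sets, the shares were for NRF1 0.551%, 3.77% and 0.376%, for ETS 2.03%, 5.72% and 1.08%, and for CREB and ATF 0.117%, 1.35% and 0.223%. For SP and KLF they were 23.7%, 33.7% and 5.44%. Each of these 5 was less frequent in replicate 2-only than in shared peaks, and no match says only that these letters are not in the window.

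The lower shares were seen at promoters and outside them, but the size of the difference depended on the class. Outside promoters the CTCF letters were in 1.02% of 5213 replicate 2-only peaks and 13.6% of 21772 shared peaks. At promoters the NRF1 letters were in 0.904% of replicate 2-only and 7.74% of shared peaks. The ETS letters were in 2.47% of replicate 2-only and 10.9% of shared promoter peaks, and the SP and KLF letters in 35.8% and 54.5% of the same sets. Letters of other factors were CCAAT for NFY, AAGATGGC for YY1 and CAGCTG, an E-box of bHLH factors. The shares were 12.5%, 17.4% and 19.6% for NFY and 0.621%, 1.80% and 1.01% for YY1 in replicate 2-only, shared and all replicate 2 peaks. For the E-box they were 8.79%, 11.2% and 8.64%. The homeodomain letters TAATTA were in 1.28% of replicate 2-only, 1.25% of shared and 3.68% of all replicate 2 peaks, so this sequence was no less frequent than in shared peaks. RFX letters were at 0.0469% and 0.497% in replicate 2-only and shared peaks, those of SOX (ACAATGG) at 1.10% and 1.71% and those of POU (ATGCAAAT) at 0.410% and 0.658%. For AP-1, GATA, TEAD and LEF and TCF factors the shares of both sets were closer. AP-1 (TGANTCA) letters were in 2.07% of replicate 2-only and 2.16% of shared peaks, and GATA letters (AGATAAG) in 0.715% and 0.652%. TEAD letters (GGAATG) were in 5.92% of replicate 2-only and 6.13% of shared peaks, and LEF and TCF letters (CTTTGAT) in 1.18% and 1.34%. The NFI consensus was found in 1 replicate 2-only peak and 8 shared peaks.

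Of 20780 protein-coding genes on these chromosomes, 4514 (21.7%) were the gene of the nearest TSS, within 100 kb, of at least 1 replicate 2-only peak. A single such peak was found at 3033 genes, and 90.2% of those peaks had both a replicate 1 hotspot and a near peak. At the other end, 65 genes had 10 or more. Of these 65, keywords placed 46 in the homeobox, paired box, T-box, forkhead, GATA, SOX or bHLH families of transcription factors, 31 of them as homeobox genes. The keywords missed Hand2, En1 and En2, which are among the 65, so both counts are too low. By the same keywords these families make up 1.56% of all protein-coding genes. They held the nearest gene of 4.22% of all assigned replicate 2 peaks and 7.96% of the strong ones. The length of sequence nearest to a gene was not adjusted for here. The 65 genes held 927 replicate 2-only peaks (11.4% of those assigned to a gene) and 510 (49.8%) of the unmatched ones. Over all peaks of any strength, they had 4881 in replicate 2 and 1963 in replicate 1, a ratio of 2.49, which the choice of these genes favours.

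Unmatched peaks were concentrated at these gene families. The nearest gene was in a family, as read by keyword, for 619 of 1025 assigned unmatched peaks (60.4%). It was so for 8.18% of replicate 2-only peaks with a replicate 1 hotspot and near peak, and for 5.50% of shared peaks. The share depended on the signal threshold: with the 80th percentile it was 22.1%, with 9434 unmatched peaks in all, and with the 95th it was 72.1%, with 105. Homeobox genes alone accounted for 431 (42.0%), forkhead genes for 53, T-box genes for 46, GATA genes for 37 and bHLH genes for 32. The keywords miss some members, and the bHLH count leaves out the 16 unmatched peaks of Hand2, so the families cannot be ranked by these counts. Paired box genes had 19 and SOX genes 1. Peaks with a near replicate 1 peak but no hotspot were intermediate for homeobox genes, at 21.8%. Among distal peaks the family share was 62.0% of 540 unmatched and 7.88% of shared peaks. Counting each gene a single time, 113 of 316 genes with an unmatched peak (35.8%) were in a family, and the genes with an unmatched peak were 1.52% of all protein-coding genes.

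**Figure D4:**
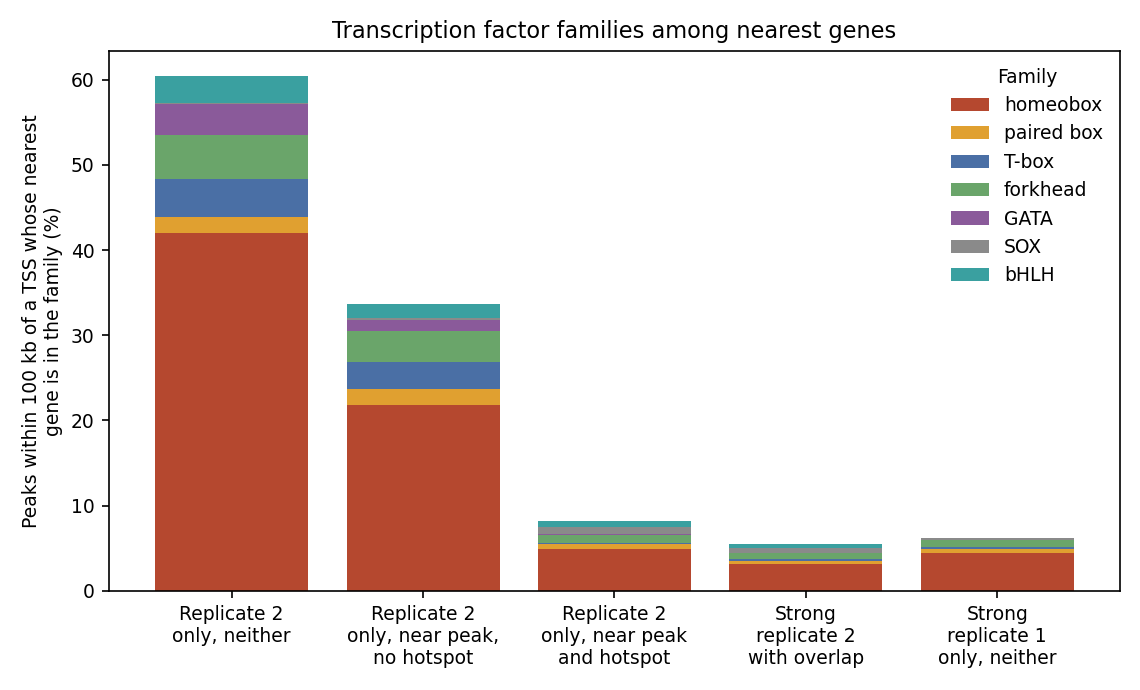
Share in percent of peaks whose nearest gene belongs, as read by keyword, to each of 7 transcription factor families, by set of peaks. Homeobox genes account for 42.0% of unmatched replicate 2-only peaks and 3.14% of shared peaks.

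The mirror set gave other values. Strong replicate 1-only peaks with neither a replicate 2 hotspot nor a near replicate 2 peak numbered 642. Of the 433 assigned to a gene, 27 (6.24%) had a nearest gene in a family. The median GC content of the 642 was 52% and their CpG ratio 0.247, against 56% and 0.480 for unmatched replicate 2-only peaks. The E-box letters CAGCTG were in 30.2% of them and in 8.88% of unmatched replicate 2-only peaks. The median distance to a TSS was 48105 bp for the 642 and 2864 bp for unmatched replicate 2-only peaks. Promoters held 0.935% and 9.44% of these sets, and position was not matched in the comparison. Strong peaks without a partner thus differed in sequence and position between the replicates, with no test of the difference. In bulk tissue, fewer cells of a type and less accessibility per cell cannot be told apart, and neither can be told apart from the libraries here.

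Unmatched peaks mostly lay in broad, peak-dense regions of replicate 2, which was not particular to them among replicate 2-only peaks. Of the 1059, 39.7% were intronic, 37.0% intergenic, 13.9% exonic and 9.44% at promoters. The replicate 2 hotspot that held them had a median width of 2895 bp, against 1404 bp for shared peaks, and the 1059 lay in 620 different hotspots. Within 5 kb of an unmatched peak, the median number of peaks was 16 in replicate 2 and 3 in replicate 1, while around shared peaks it was 6 in replicate 2 and 4 in replicate 1. For 9.16% of unmatched peaks no replicate 1 peak lay within 5 kb. Peaks with a near replicate 1 peak but no hotspot had medians of 2453 bp and 14 replicate 2 peaks. Those with both had 2070.5 bp and 8. Among the 10 strongest unmatched peaks, hotspot widths ran from 92 bp at Hoxb6 to 9426 bp at Vax2.

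The strongest unmatched peaks were at regulators of development. Sim1, a bHLH transcription factor of the hypothalamus, had intronic peaks of signal 71 and 66, with the nearest replicate 1 peak 4930 and 2830 bp away. Hoxa13, the most 5′ Hox gene of its cluster and active in limbs and hindgut, had peaks of signal 67 in an exon and 65 between genes. Its nearest replicate 1 peaks were 590 and 2650 bp away. Tbx4, a hindlimb regulator, had an intronic peak of signal 66 with a gap of 2010 bp. An exonic peak at Hoxd9 had a signal of 63 and a gap of 510 bp, just past the distance limit.

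The other 4 of the 10 strongest unmatched peaks each had a signal of 62. They lay near Barhl2, a homeobox gene of diencephalon and retina, Vax2, a homeobox gene of the ventral eye, Hoxb6 and Otx2. Gaps to replicate 1 were 1790 bp at Barhl2, 650 bp at Vax2, 3910 bp at Hoxb6 and 890 bp at Otx2. Of these 10 peaks, the Hoxb6 peak alone lay at a promoter, 20 bp from the TSS.

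Only 23 replicate 2-only peaks lay in a replicate 1 hotspot without a replicate 1 peak within 500 bp. Among the strongest were peaks near Dcaf6 (signal 52), Abhd17b, a depalmitoylase gene (52), Snrnp35, a component of the minor spliceosome (47), and Zranb1, a deubiquitinase gene (47). Their gaps were 510 to 610 bp, so they lay just outside the limit. The replicate 1 peaks beside them had signals of 102 to 134 in their own list.

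Otx2, which specifies forebrain and midbrain and lies on the minus strand at chr14:48657677-48673819, had the most replicate 2-only peaks, 28, of which 22 were unmatched. Its nearest-TSS territory held 140 peaks of any strength in replicate 2 and 37 in replicate 1. Hand2, a bHLH gene of heart and sympathetic neurons, had 24 with 16 unmatched, and 95 peaks of any strength in replicate 2 against 81 in replicate 1. Gata4, a heart and endoderm regulator, had 23 with 18 unmatched, and 75 peaks in replicate 2 against 10 in replicate 1. Six3, a forebrain and eye homeobox gene, had 22 with 18 unmatched, and 101 peaks in replicate 2 against 33 in replicate 1. These genes were picked for their replicate 2-only peaks, so higher peak numbers in replicate 2 are part of the choice and no result. At Hand2 the numbers were nevertheless close in both replicates.

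Sim2, a bHLH gene related to Sim1, had 21 replicate 2-only peaks with 16 unmatched, and 62 peaks of any strength in replicate 2 against 16 in replicate 1. Tbx3, a limb and heart T-box gene, had 20 with 16 unmatched, and 104 peaks in replicate 2 against 18 in replicate 1. Gata2, which specifies inhibitory neurons of the midbrain and acts in blood, had 19 with 13 unmatched, and 42 peaks in replicate 2 against 8 in replicate 1. Lmx1b, a homeobox gene of the isthmus and dopamine neurons, had 19 with 7 unmatched, and 123 peaks in replicate 2 against 55 in replicate 1. Nr2f2, an orphan nuclear receptor gene, also had 19, but none was unmatched and 15 had both a replicate 1 hotspot and a near peak. Among the 10 genes with the most peaks it alone had no unmatched peak.

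Within 20 kb of the 5′ end of Otx2 lay 53 replicate 2 peaks with signals up to 62, of which 22 were replicate 2-only peaks and 19 unmatched. The same window held 7 replicate 1 peaks, with signals of 19, 25, 25, 28, 42, 49 and 73. At Gata4 the window held 52 replicate 2 peaks with signals up to 67, 13 of them replicate 2-only and 11 unmatched. It held 3 replicate 1 peaks, with signals of 30, 45 and 103. Both genes were picked for their many unmatched peaks, so the few replicate 1 peaks there follow from the choice.

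**Figure D5:**
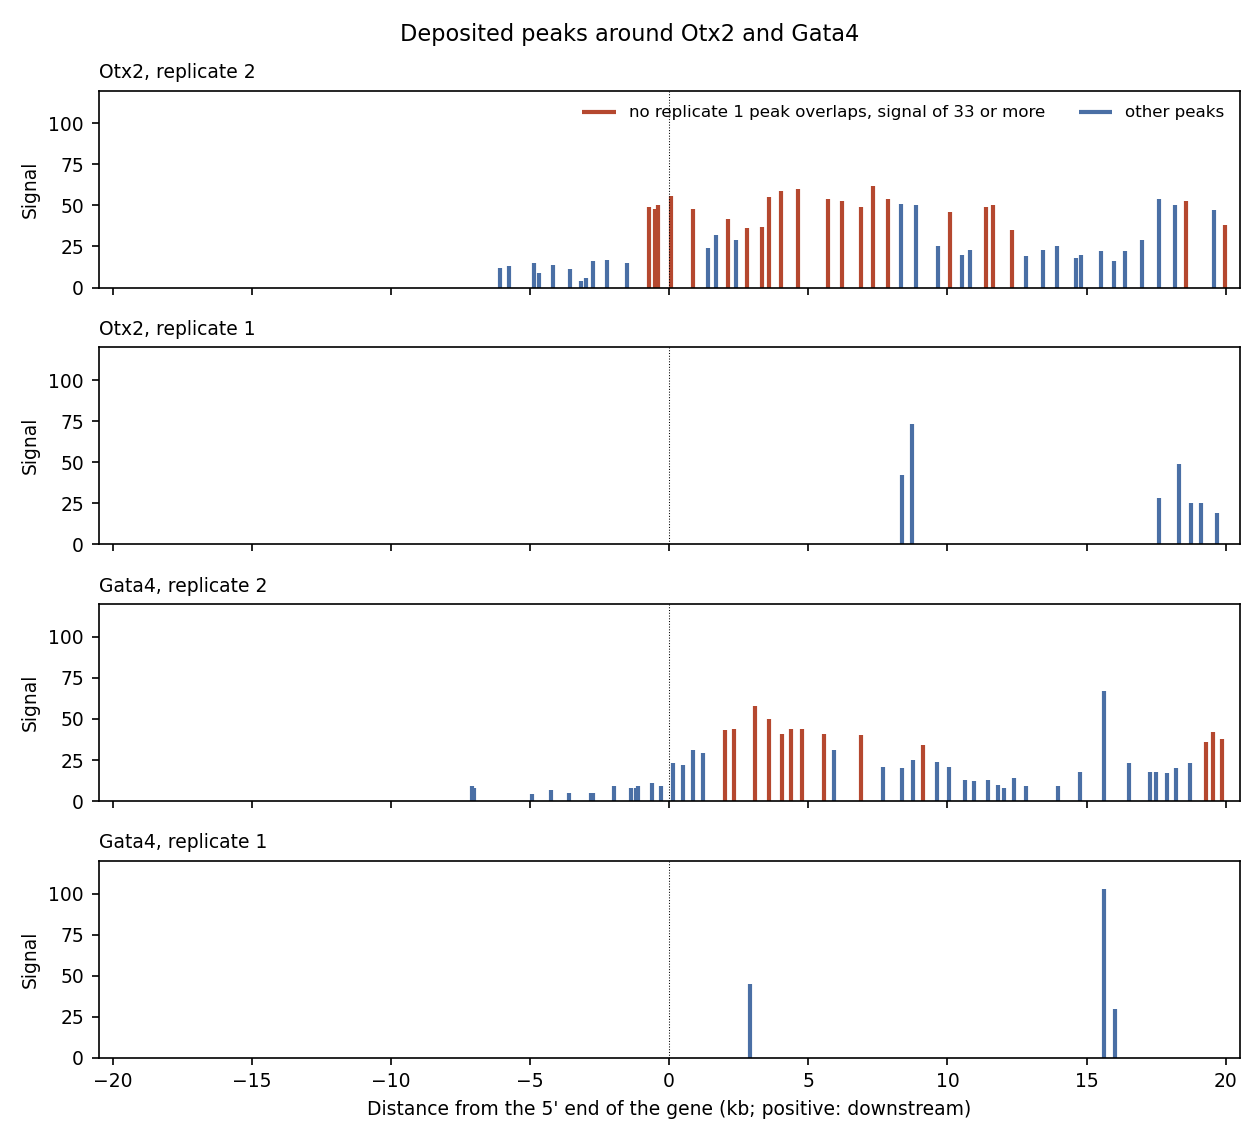
Deposited signal of each peak against distance in kb from the 5′ end of Otx2 and Gata4, replicate 2 above replicate 1. Replicate 2 has 53 and 52 peaks in these windows, and replicate 1 has 7 and 3. Signal heights rank peaks only within a replicate.

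The 4 Hox clusters, whose genes pattern the hindbrain and trunk, held 252 replicate 2-only peaks, of which 184 (73.0%) were unmatched. Shared peaks there numbered 96 and strong replicate 1-only peaks 12. Hoxa had 97 replicate 2-only peaks (75 unmatched), Hoxb 50 (38), Hoxc 53 (32) and Hoxd 52 (39). Peaks of any strength numbered 657 in replicate 2 and 238 in replicate 1. In each cluster the replicate 2-only peaks outnumbered the shared ones, and 34 of 39 Hox genes had at least 1.

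In windows of 1 Mb the densest was chr6:52000001-53000000, which holds the Hoxa cluster and Evx1, with 115 replicate 2-only peaks, 79 of them unmatched. It had 452 peaks in replicate 2 and 158 in replicate 1. Next came the windows of Hoxd on chromosome 2 with 59, of Hoxb on chromosome 11 with 57, of Hoxc on chromosome 15 with 50 and of Six3 and Six2 on chromosome 17 with 44. The median over 2413 windows with any peak was 2. Together these 5 windows held 3.81% of the replicate 2-only peaks and 20.4% of the unmatched ones. By chromosome, the share of strong replicate 2 peaks that were replicate 2-only ran from 16.2% on chromosome 10 to 21.6% on chromosome 6.

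Lists of genes were read against the mean over all protein-coding genes, 0.391 replicate 2-only peaks per gene, and against the 19.1% that such peaks made up of their strong replicate 2 peaks. Midbrain and isthmus patterning genes had 180 peaks at 19 of 20 genes, or 9 per gene, led by Otx2 and Lmx1b with 28 and 19. Of the 180, 61 (33.9%) were unmatched. Genes of midbrain neuron specification had 136 at 20 of 21, with 19 at Gata2, and 46 (33.8%) were unmatched. Neural progenitor genes had 89 at 17 of 19, and 5 were unmatched, with 13 at the homeobox gene Lhx2 and 11 at Sox1. Neuronal differentiation genes had 37 at 17 of 21, with 7 at Ebf1 and 5 at Ebf2, and 1 was unmatched. The 4 lists were above the mean per gene, but they also had many shared peaks. Replicate 2-only peaks made up 41.8% of the strong peaks of midbrain and isthmus genes, 42.5% for midbrain neuron specification, 25% for progenitor genes and 21.1% for neuronal differentiation genes. The last 2 shares were nearest to that over all genes. The length of sequence nearest to each gene was not adjusted for.

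Lists for other regions of the body axis also had many. Forebrain patterning genes had 106 at 15 of 16 genes, led by Six3 with 22 and Nkx2-1, a ventral forebrain regulator, with 14. Of the 106, 46 were unmatched. Hindbrain and anterior Hox genes had 52 at 13 of 15, of which 8 were unmatched, with 10 at Lbx1 and 7 at Hoxb4. Posterior Hox genes had 166 at 17 of 18 genes, of which 138 were unmatched, with 17 each at Hoxa13 and Hoxa9. Mesenchyme and neural crest genes had 60 at 11 of 15, of which 24 were unmatched, with 13 at Tfap2a and 9 at Foxd3, both neural crest regulators. Heart and skeletal muscle genes had 97 at 10 of 17, of which 58 were unmatched, with 24 at Hand2 and 23 at Gata4. The share of strong peaks that were replicate 2-only was 45.5% for forebrain, 32.3% for hindbrain and anterior Hox, 86.0% for posterior Hox, 37.0% for mesenchyme and neural crest and 61.8% for heart and muscle genes. The genes leading these lists were transcription factors, which the choice of patterning and Hox genes for the lists favours.

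Lists of general cell functions and of other cell types had from 0 to 1.13 per gene. Chromatin regulators at 1.13, endothelial genes at 0.8 and housekeeping genes at 0.714 lay above the mean over all genes, and the others lay below it. As a share of strong peaks, chromatin regulators had 24.5% and endothelial genes 25.5%, near the progenitor list, while housekeeping genes had 15.4%, erythroid genes 17.2%, microglia and macrophage genes 12.5% and cell cycle genes 8.22%. Cell cycle genes had 6 at 3 of 18 genes, with 4 at Ccnd1, cyclin D1, and 1 at Aurkb, a mitotic kinase. Housekeeping genes had 10 at 6 of 14, with 3 at Actb and 2 at Gapdh, and chromatin regulators had 26 at 12 of 23, with 5 each at Arid1a and Dnmt3a. None of the peaks of these 3 lists was unmatched. Endothelial genes had 12 at 6 of 15, with 4 at Fli1 and 3 at Flt1, and erythroid genes had 5 at 3 of 13, with 3 at Tal1 and 1 at Epor. Microglia and macrophage genes had 3, all at Runx1, with 0 at Aif1, and the 14 liver genes, Afp and Ahsg among them, and 14 germline genes, with Dazl and Ddx4, had 0.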

How the data were processed

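Peak lists and hotspot lists of both replicates, on mm10, were made by the authors for each replicate separately, without pooling, as the deposited records state. The signal of each peak is a whole number deposited by the authors with no stated normalization. Each deposited hotspot carries a −log10 q-value, from 1.30 to 100, which was not used for filtering, and a deposited score, which was not used. The aligner and peak caller, with their versions and settings, were not given in the sources used here.

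Rows with the same coordinates were counted as 1 peak, which removed 104 in replicate 2 and 50 in replicate 1. Peaks were overlapped at 1 bp, annotated against GENCODE vM21 basic protein-coding transcripts (promoter within 500 bp of a TSS, then exon, intron, intergenic), and assigned to the gene of the nearest TSS within 100 kb. Sequences came from the RefSeq genome GRCm38.p6, and no peak ran past a chromosome end. Families were read by keyword from RefSeq gene descriptions, matched for 19494 of 20780 genes (93.8%), and miss some members, such as Hand2, En1 and En2. Of 294 listed genes, 284 were found. Tools were Python 3.11.15, numpy 2.4.6, pandas 2.3.3, scipy 1.17.1 and matplotlib 3.10.9, and the interval steps were checked on simulated data. Read depth is unknown, and no test between samples was possible with 1 group of 2 samples.

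The set, the 17 gene lists and the 17 motifs were chosen with earlier results of these data known. The families, the Hox cluster counts, the view of Otx2 and Gata4, the single-TSS check and the motif shares by class were chosen after seeing the data. Named peaks are the 15 strongest of the set, the 10 strongest unmatched, the 5 strongest with a hotspot alone and the 5 strongest with a near peak. Named genes are the 10 with the most peaks, and the first 2 of each list, and windows are the 5 with the most peaks. Evx1 and Six2 were named beside their windows. A few named items are not reported here. Alternatives varied the threshold, overlap, distance, promoter window, TSSs and replicate.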

Additional observations from a re-analysis of the deposited data

How the results depend on the processing

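Of 68 alternative values, 52 moved by more than the counting interval, or 1.5 times for a count, and 16 did not. This 95% interval counts each peak as independent. Peaks of a library are not replicates, so it does not measure variation between samples. With the 80th percentile the set had 30529 peaks, 16.1% at promoters, 7.47% exonic, 39.9% intronic, 36.5% intergenic, 39.0% in a replicate 1 hotspot, 68.8% with a near peak and a median GC of 52.7%. It had 9434 unmatched peaks, of which 22.1% were near the families, 2382 peaks at listed genes against 985, the CTCF letters in 0.776% and 64.0% of promoter peaks downstream. With the 95th percentile it had 3307 peaks, 61.2% at promoters, 8.44% exonic, 16.8% intronic, 13.6% intergenic, 92.9% in a hotspot, 96.7% with a near peak and a GC of 67.3%. It had 105 unmatched, of which 72.1% were near the families, 270 at listed genes and the CTCF letters in 1.60%. Promoter, hotspot and near-peak shares thus rose with the threshold.

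An overlap of at least 75 bp gave 16531 peaks, 41.6% at promoters, 8.98% exonic, 25.9% intronic, 86.1% in a hotspot, 93.5% with a near peak, a GC of 61.3% and 65.4% downstream. Removing peaks with a replicate 1 peak within 500 bp left 1082. Without replicate 1 as a condition, all 45325 strong replicate 2 peaks had 40.5% at promoters, 6.77% exonic, 25.1% intronic, 27.6% intergenic, 94.9% in a replicate 1 hotspot, 97.6% with a near peak and 49.96% downstream. Without replicate 2 there is no set and so no value. Promoter windows of 150 and 1000 bp gave 11.4% and 54.3%, and TSSs of all genes 44.2%. A hotspot overlap of 75 bp gave 68.0%, distances of 250 and 1000 bp gave 77.6% and 92.4%, and GC over 300 bp was 59.7%. At 1000 bp 646 peaks were unmatched, 66.9% near the families, and without the 5 densest windows the family share was 50.2%. Genes with 1 TSS gave 72.5% downstream. The results for unmatched peaks, families, listed genes, motifs and downstream position had alternatives chosen after seeing the data. Matching to the stronger 50% of replicate 1 peaks changed none of the values it was run on beyond that range. The cause of these shifts was not tested beyond the construction of each alternative. No paired analysis was possible because there is 1 group. Depth is unknown, so what it limits cannot be stated.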
